A study of Rattus norvegicus with 20 samples.

Results

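The blood response of resistant rats to acetaminophen (APAP) was described from 10 of the 20 arrays of the series, namely 5 of blood drawn before dosing and 5 of blood drawn 24 h after dosing. Arrays were taken by their titles, and all 10 were used. The animals were male Wistar rats, an outbred strain, and their age was not given in the sources used here. The predose group received no drug and the postdose group had received a single oral dose of 1200 mg/kg APAP in carboxymethyl cellulose after a 12 h fast. Resistance was defined by the study after dosing, since these were the rats with the lowest serum alanine aminotransferase (ALT, an enzyme that injured liver cells release) at the time of the second bleed. The other 10 arrays, of the susceptible rats with the highest ALT, served only for comparison. Vehicle-treated rats were not analysed here. The same 5 rats were bled at both times, so the 10 arrays are not of 10 separate animals, but the labels do not say which predose and postdose arrays are of 1 rat. By the methods the fast went on only briefly after dosing, so it had ended well before the second bleed. A recovery period, the fast and the calendar day separated the bleeds together with the drug, and both were taken under anaesthesia. For the site of the second bleed the sources disagree, the labels naming the retro-orbital plexus and the methods the inferior vena cava. These factors and the drug cannot be told apart in this design.

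APAP is an analgesic that the liver clears mainly as glucuronide and sulfate conjugates, while cytochrome P450 turns a small part into a reactive quinone imine that glutathione traps. When glutathione runs out, hepatocytes die and the dying cells draw neutrophils and monocytes to the liver. Blood leucocytes are a mixture of neutrophils, monocytes, T cells, B cells and natural killer (NK) cells, and their RNA changes both when the mixture shifts and when the cells themselves are activated. Glucocorticoids, fasting and the time of day are also known to move leucocytes between blood and tissue.

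Signals were given per probe set in linear units. They were scaled to a median of 1000 on every array and converted to log2, so that a log2 signal of 9.97 was the array median and a log2 change of 1 was a 2-fold change. The deposited array medians ran from 187 to 223 on the 10 resistant arrays. The 3′ to 5′ log2 ratio of the actin control probe sets, a sign of RNA integrity, was 0.80 ± 0.03 (SD, n = 5) predose and 0.76 ± 0.10 (SD, n = 5) postdose. The bacterial trp probe sets, which should find no target in rat RNA, had median scaled signals of 30.6 to 66.5 predose and 18.1 to 211 postdose. The highest of them on any of the 10 arrays was 279, or 8.12 on the log2 scale, and the size of a change is uncertain where a group mean fell below it. Defining markers of blood were present in both groups. Predose log2 signals (mean ± SD, n = 5) were 17.09 ± 0.10 for Cd3g, a chain of the T cell receptor complex, 15.61 ± 0.25 for Ms4a1, the B cell antigen CD20, and 18.81 ± 0.11 for Pf4, a platelet chemokine.

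Of 30441 probe sets tested with limma, 504 were higher (1.66%) and 464 lower (1.52%) after dosing at an adjusted p under 0.05. The median absolute log2 change of these 968 probe sets was 0.90 and their median SE was 0.15, and 385 of them changed at least 2-fold. Postdose values of 932 of the 968 lay wholly above or wholly below the predose values. Over all 30441 probe sets tested, 995 lay wholly above and 1084 wholly below. A small p at 5 against 5 arrays favours such separation, so the count of 932 is not separate support for the calls. Each gene was represented by its brightest probe set, which gave 14041 genes tested, of which 299 rose (2.13%) and 199 fell (1.42%). These shares are the background for every count of called list members below. Of the 173 called genes with more than 1 probe set, 141 had all of them on 1 side, and 4 had a probe set that went the other way at an unadjusted p under 0.05. The number of called probe sets fell by over 1.5 times when some single arrays were left out. It was 541 without predose replicate 2, 459 without predose replicate 3, 510 without predose replicate 4, 500 without postdose replicate 1, 439 without postdose replicate 2, 595 without postdose replicate 3 and 574 without postdose replicate 5. Of the 192 genes chosen for description 106 were called, and 55 of these kept their call whichever array was left out. For the rest, the number that lost their call ran from 10 without predose replicate 5 to 45 without postdose replicate 2, with 41 without predose replicate 3 and 40 without predose replicate 2.

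**Figure D1:**
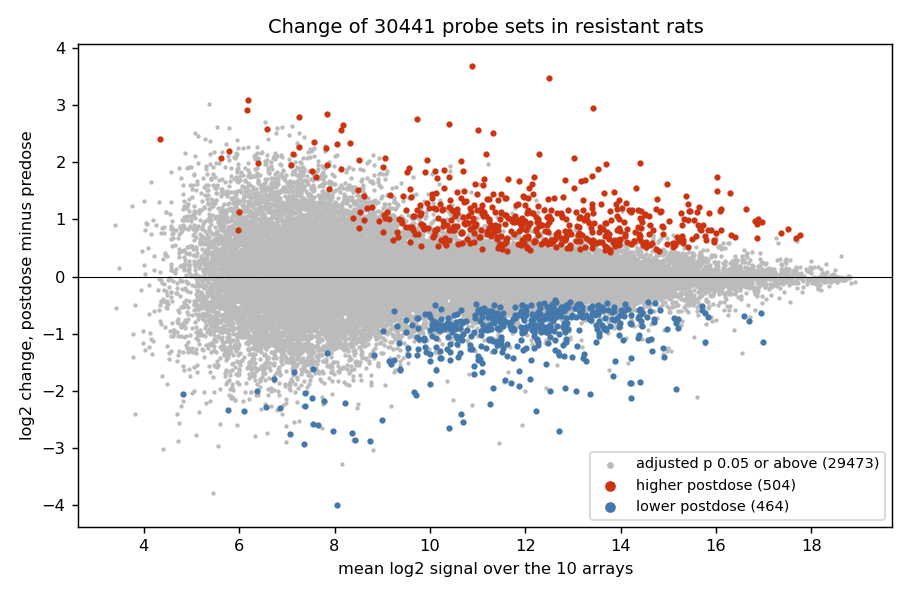
Log2 change (postdose minus predose) of each probe set tested in resistant rats against its mean log2 signal over the 10 arrays. Red points are the 504 probe sets that were higher and blue points the 464 that were lower at an adjusted p under 0.05, and grey points did not pass; the spread of the grey points widens towards low signals.

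Genes of NK and cytotoxic lymphocytes gave the most rises of any list. Of 22 tested members of this list, 12 rose and none fell, against 2.13% and 1.42% of all genes tested, and the median log2 change of the list was 1.03 against -0.01 over all genes. The surface receptors led, with 5 of 8 called. Klrd1 encodes CD94, the partner chain of the NKG2 receptors, and its log2 signals were 15.36, 14.40, 14.71, 14.73 and 14.68 on the predose arrays and 16.10, 16.03, 15.96, 15.90 and 16.25 on the postdose arrays. Its postdose arrays all lay above its predose arrays, by 1.27 ± 0.17 on the log2 scale (SE, adjusted p = 0.00615). Ncr1, which encodes the NK activating receptor NKp46, had 12.73, 11.93, 11.79, 11.56 and 11.89 on the predose arrays and 13.83, 13.82, 13.58, 13.41 and 13.76 on the postdose arrays. This was a 3.24-fold rise (adjusted p = 0.00399), and predose replicate 1 was the highest of the predose arrays for both genes. Klrb1a, an NKR-P1 receptor, rose by 1.62 ± 0.23 (SE) and Il2rb, the beta chain of the interleukin 2 and 15 receptors, by 1.06 ± 0.13. Klrc1, the NKG2A chain of the inhibitory receptor, changed most in size, with 9.86, 8.70, 7.68, 6.33 and 9.23 on the predose arrays and 11.46, 11.39, 10.66, 10.79 and 11.26 on the postdose arrays (log2 change 2.75 ± 0.59, adjusted p = 0.0401), but 2 of its predose signals lay under the highest negative control and leaving out any 1 of 7 of the 10 arrays ended the call.

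Of the 12 effector molecules of the same cells 6 rose, and all 12 were higher. Perforin (Prf1), which opens pores in target cells, had log2 signals of 16.80, 16.15, 16.37, 16.30 and 16.25 on the predose arrays and 17.68, 17.45, 17.24, 17.05 and 17.45 on the postdose arrays. The groups did not overlap, and the log2 change was 1.002 ± 0.16 (adjusted p = 0.0126). Granzymes, the proteases that enter through these pores, gave changes of 1.46 ± 0.25 for Gzmk, 1.11 ± 0.21 for Gzma and 1.14 ± 0.25 for Gzmm (log2 ± SE), and Gzmm was the one with overlapping groups. Nkg7, a granule membrane protein, rose by 1.14 ± 0.19 and Faslg, the Fas death ligand, by 1.40 ± 0.28. Eomes, a T-box transcription factor of NK and memory CD8 cells, stood at 13.51, 12.23, 12.51, 12.10 and 12.54 on the predose arrays and 14.64, 14.66, 14.38, 14.06 and 14.60 on the postdose arrays, a 3.7-fold rise (adjusted p = 0.00646) that its second probe set shared. The members with the highest signals did not pass: Srgn, the granule proteoglycan serglycin, changed by 0.17 ± 0.11 (adjusted p = 0.525) and Ccl5, a chemokine of T and NK cells, by 0.64 ± 0.18 (adjusted p = 0.0996). Leaving out single arrays left between 7 and 12 of the 12 calls; Gzma (adjusted p up to 0.0681), Gzmm (0.103), Faslg (0.076), Klrc1 (0.101) and Gzmk (0.0519, without postdose replicate 2) lost theirs. In bulk blood, a larger share of cytotoxic cells and more RNA per cell cannot be told apart.

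**Figure D2:**
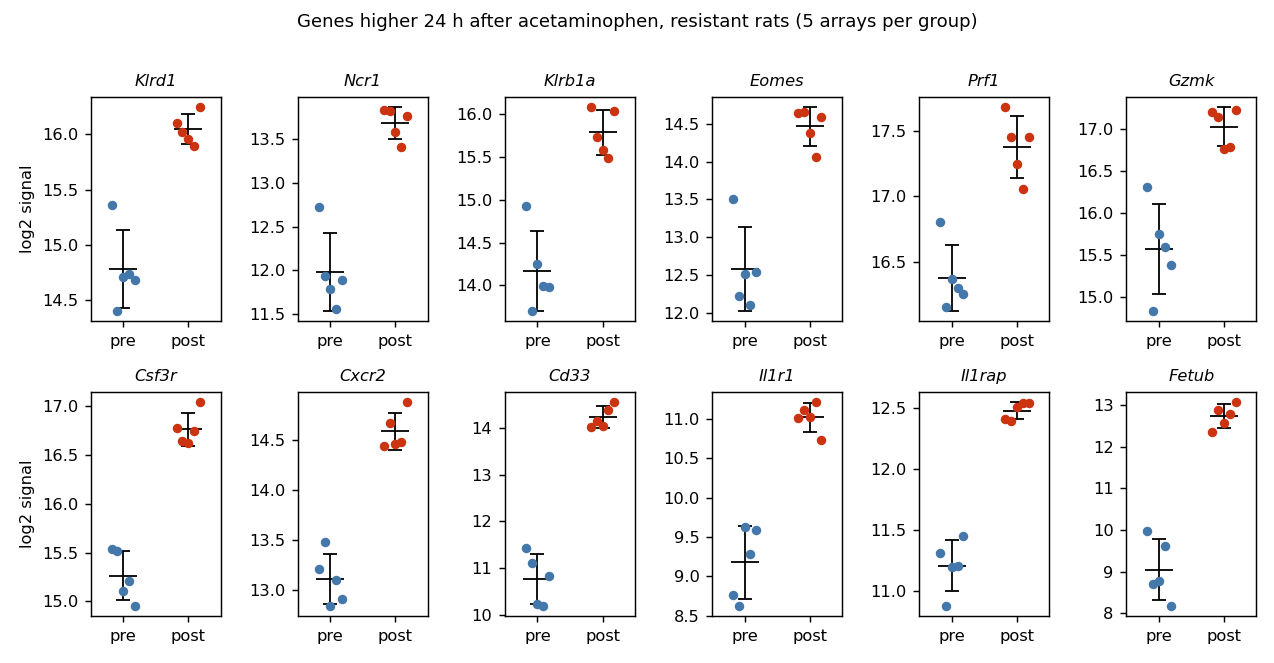
Log2 signal of 12 genes that rose in resistant rats, with 5 predose arrays in blue and 5 postdose arrays in red, and black bars for the mean and SD of each group; each panel has its own vertical range. In all 12 panels every red point lies above every blue point, and Fetub and Cd33 show the widest gaps.

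Of 12 tested neutrophil receptor genes 4 rose and none fell, with a list median of 0.66, and of 10 neutrophil granule proteins 2 rose and 1 fell. The shares over all genes tested were 2.13% and 1.42%. Csf3r, the receptor for granulocyte colony-stimulating factor, had log2 signals of 15.53, 15.52, 15.10, 15.21 and 14.96 on the predose arrays and 16.78, 16.64, 16.62, 16.75 and 17.04 on the postdose arrays, and Cxcr2, the receptor for neutrophil-attracting chemokines, had 13.21, 13.48, 12.85, 13.10 and 12.92 on the predose arrays and 14.45, 14.67, 14.46, 14.48 and 14.88 on the postdose arrays. Both separated the groups, with folds of 2.83 (adjusted p = 0.00162) and 2.78 (adjusted p = 0.0018). Pglyrp1, a peptidoglycan-binding granule protein, rose by 1.17 ± 0.15 and Chi3l1, a chitinase-like granule protein, by 0.69 ± 0.10, whereas Camp, the cathelicidin precursor made by immature neutrophils, fell by 0.89 on the log2 scale (SE 0.18, adjusted p = 0.0304). The call for Camp held in 2 of the 10 leave-one-out fits (adjusted p up to 0.0778), and so did that for Padi4, the histone citrullinating enzyme that is part of the receptor list (log2 change 1.01 ± 0.20, adjusted p up to 0.0734). Lyz2 and Itgb2, with the highest signals, did not pass, with -0.02 ± 0.15 and -0.01 ± 0.23 (SE, adjusted p = 0.963 and 0.986). S100a8, a subunit of calprotectin, rose by 0.73 ± 0.13 (adjusted p = 0.0173, and 0.0519 without predose replicate 3), and its partner S100a9 changed by 0.36 ± 0.13 with an adjusted p of 0.187. With Anxa1, described with the glucocorticoid genes, 2 of 18 S100 proteins and annexins rose and none fell.

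Fc and inhibitory receptors of myeloid cells included the second-largest rise of any gene with a signal at the array median. Cd33 encodes a sialic acid-binding receptor that carries inhibitory motifs, and its log2 signals were 11.42, 11.11, 10.23, 10.19 and 10.83 on the predose arrays and 14.02, 14.16, 14.05, 14.39 and 14.56 on the postdose arrays. The fold was 11.2 (log2 change 3.48 ± 0.25, adjusted p = 0.00084), with a gap of more than 2 log2 units between the groups. Siglec5, of the same receptor family, had 10.02, 10.30, 10.05, 10.10 and 10.04 on the predose arrays and 11.17, 11.50, 11.63, 11.29 and 11.56 on the postdose arrays, and Lilrb4, an immunoglobulin-like inhibitory receptor, rose by 1.14 ± 0.15. With Fcgr2b, the inhibitory IgG receptor (0.89 ± 0.19), and Clec7a, the beta-glucan receptor dectin-1 (0.64 ± 0.11), 5 of 16 members rose and none fell, and the list median was 0.29. Among all genes tested 2.13% rose and 1.42% fell. Fcgr2b kept its call in 2 of the 10 leave-one-out fits and Clec7a in 8, losing it without postdose replicate 2 or postdose replicate 5 (adjusted p up to 0.0983 and 0.0599). Fcer1g and Tyrobp, the adaptor chains with the highest signals, changed by 0.23 ± 0.13 and 0.60 ± 0.34 and did not pass (adjusted p = 0.44 and 0.428). Among 15 monocyte and macrophage markers, Gpnmb, a membrane glycoprotein, rose by 1.20 ± 0.23 (adjusted p up to 0.0714 with 1 array left out) and the orphan nuclear receptor Nr4a1 fell, with a list median of 0.01. The 10 receptors of this list had a median of -0.32, with 6 lower, 4 higher and none called. The 5 other members, which include both called genes, had a median of 0.05.

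Receptors of the interleukin 1 system rose with the cytokine itself. Il1r1, the signalling receptor, had log2 signals of 8.77, 8.63, 9.63, 9.28 and 9.59 on the predose arrays and 11.01, 11.12, 11.02, 11.21 and 10.74 on the postdose arrays, a 3.58-fold rise (adjusted p = 0.00322) on the probe set with the highest signal, while its other 2 probe sets changed by 0.51 and 0.01 and did not pass. Its co-receptor Il1rap was at 11.31, 10.88, 11.19, 11.20 and 11.45 on the predose arrays and 12.41, 12.39, 12.51, 12.54 and 12.54 on the postdose arrays (log2 change 1.27 ± 0.12, adjusted p = 0.00139). Both genes had narrow postdose values that cleared every predose array. Il1b stood at 15.78, 16.17, 16.30, 16.42 and 16.97 on the predose arrays and 17.48, 17.37, 17.002, 17.11 and 17.56 on the postdose arrays, and the decoy receptor Il1r2 rose by 0.87 ± 0.20; the calls of both held in 1 of 10 leave-one-out fits (adjusted p up to 0.106 and 0.115). Il22ra2, a soluble receptor that binds and blocks interleukin 22, had 9.51, 9.67, 9.29, 9.90 and 10.23 on the predose arrays and 12.03, 11.997, 12.27, 12.44 and 12.69 on the postdose arrays, with a fold of 5.92 (adjusted p = 0.000939). Il10rb, a shared chain of the interleukin 10 and 22 receptors, rose by 0.74 ± 0.12 and Tnfrsf1a, the main tumour necrosis factor receptor, by 0.71 ± 0.12, the latter without a call when predose replicate 3 or postdose replicate 2 was left out (adjusted p up to 0.055). Thus 6 of 12 tested cytokine receptors rose and 1, Il4r, fell (-1.03 ± 0.14), against 2.13% and 1.42% of all genes tested.

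The cytokines and chemokines of the same list went both ways. Il10, the main anti-inflammatory cytokine, fell furthest, with log2 signals of 10.11, 10.38, 10.13, 9.72 and 9.90 on the predose arrays and 7.83, 4.32, 4.98, 5.39 and 7.77 on the postdose arrays. All postdose signals were under the highest negative control, so the fall was at least 3.8-fold (adjusted p = 0.0162), taking each postdose array at the higher of its own signal and that control. The same floor was used for the other bounds. Cxcl1, a neutrophil chemokine, fell at least 1.25-fold by this floor (adjusted p = 0.0156), but its predose mean of 8.44 was itself close to the control level, and the call was lost with all 20 arrays in the fit. Ccl4 and Ccl6, chemokines for monocytes and lymphocytes, rose by 1.28 ± 0.24 and 0.68 ± 0.15, and Cxcl16 and Il15 fell, with -0.91 ± 0.20 and -0.70 ± 0.14. Each of these 4 calls ended without some single arrays (adjusted p up to 0.0673, 0.0984, 0.102 and 0.0831). In all, 9 of 49 members rose and 5 fell, against 2.13% and 1.42% of all genes tested, and the list median was -0.01. None of 11 NF-kappaB subunits and inhibitors passed; 9 of them were lower, with a median of -0.33.

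Of 23 chemokine receptor and adhesion genes 2 rose and 1 fell, against 2.13% and 1.42% of all genes tested. All 3 were among the 10 chemokine receptors. Ccr1, which binds Ccl chemokines on myeloid cells, rose by 1.14 ± 0.15 (adjusted p = 0.00525) and Cxcr3, found on NK and effector T cells, by 0.80 ± 0.14 (adjusted p = 0.0202, and up to 0.0595 without 1 array). Cxcr4, which holds leucocytes in bone marrow and lymphoid tissue, fell from 17.34, 17.20, 17.26, 17.12 and 17.39 to 16.72, 16.44, 16.51, 16.57 and 16.92 (log2 signal, adjusted p = 0.0246). All 3 of its probe sets passed in that direction, though the one used here kept its call in 4 of the 10 leave-one-out fits (adjusted p up to 0.0698). S1pr1, the receptor that lymphocytes use to leave tissue, changed by -0.44 ± 0.11 with an adjusted p of 0.07. Of 14 genes of Toll-like receptors and inflammasomes 1 rose, Myd88, the Toll-like receptor adaptor (0.64 ± 0.12), and of 16 Janus kinase, STAT and SOCS genes 1 rose, Stat5b, a transcription factor downstream of Janus kinases (0.51 ± 0.09), which kept their calls in 4 and 3 leave-one-out fits (adjusted p up to 0.072 and 0.0679). Stat5b also lost its call with all 20 arrays in the fit. In the complement list, factor D (Cfd) had 12.44, 11.78, 11.52, 11.90 and 12.22 on the predose arrays and 14.31, 14.31, 13.95, 13.61 and 14.09 on the postdose arrays. This serine protease of the alternative pathway rose 4.23-fold (adjusted p = 0.00162), the anaphylatoxin receptor C5ar1 by 0.72 ± 0.14, and Cd55, which breaks down complement convertases, fell by 0.92 with overlapping groups. Without single arrays the calls of C5ar1 and Cd55 were lost (adjusted p up to 0.0742 and 0.107).

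Other blood cell markers did not pass the test. None of 21 T cell, 12 B cell, 17 platelet, 21 erythroid and 13 eosinophil, basophil and mast cell genes was called. The list medians were -0.05, -0.37, -0.03, -0.13 and 0.22 in that order. Red cells had been lysed before the RNA was extracted, so the erythroid list describes only the erythroid RNA that remained. B cell genes were lower in 11 of 12 cases, and Ms4a1 changed by -0.37 ± 0.13 (unadjusted p = 0.0202, adjusted p = 0.189). Summed B cell signal ran from 180358 to 264967 on the predose arrays and 148973 to 193856 on the postdose arrays, so the groups overlapped. T cell genes changed by -0.01 ± 0.12 for Cd3g and 0.03 ± 0.10 for Tcf7, a T cell transcription factor. Of 6 plasma cell genes all were higher, and 1, the transcription factor Prdm1, passed (1.005 ± 0.21, adjusted p = 0.0368, and up to 0.0872 without 1 array); NK and T cells also express it. Jchain, the joining chain of secreted immunoglobulin, changed by 0.58 ± 0.23 (adjusted p = 0.237). Of 17 MHC class II and dendritic cell genes, Cd83 alone was called, and Cd74, the class II invariant chain, changed by -0.20 ± 0.15 (adjusted p = 0.555).

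The plot of list levels by array shows how these lists varied. For NK and cytotoxic genes, the median deviation of the members from their own means was -0.03, -0.72, -0.46, -0.56 and -0.57 on the 5 predose arrays and 0.67, 0.59, 0.44, 0.34 and 0.66 on the postdose arrays. Predose replicate 1 lay nearest to the postdose arrays, and no array crossed over. For the neutrophil receptors the values were -0.26, -0.08, -0.20, -0.28 and -0.59 predose and 0.48, 0.45, 0.42, 0.23 and 0.42 postdose.

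**Figure D3:**
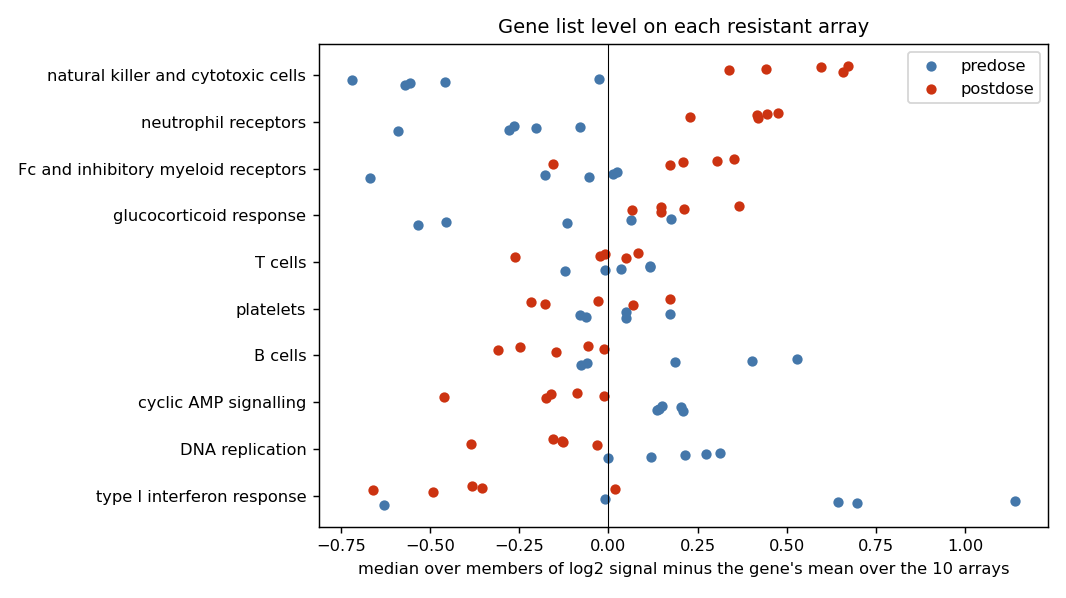
Median over the tested members of log2 signal minus each gene's mean over the 10 arrays, for 10 gene lists; each point is 1 array, blue for predose and red for postdose. The NK, neutrophil receptor and cyclic AMP lists separate the groups, and DNA replication does so narrowly. T cells and platelets overlap, and type I interferon genes are spread from -0.63 to 1.14 on the predose arrays.

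The lists of cyclic AMP signalling, the clock and immediate-early genes had the largest shares of members that fell. Immediate-early genes are switched on within minutes of a stimulus without new protein synthesis, and cyclic AMP acts through the kinase PKA and the factor CREB, which binds the cAMP response element in promoters. Among the transcription factors, Nr4a1, an orphan nuclear receptor, had log2 signals of 14.95, 15.15, 15.59, 15.05 and 15.05 on the predose arrays and 13.40, 12.93, 13.71, 12.83 and 13.60 on the postdose arrays. It fell 3.64-fold (adjusted p = 0.00281). Its relative Nr4a2 had 10.78, 11.92, 12.08, 12.14 and 12.34 on the predose arrays and 9.27, 8.67, 9.75, 9.28 and 10.26 on the postdose arrays, a 5.3-fold fall (adjusted p = 0.00922). The zinc finger factor Egr1 was at 16.09, 16.54, 16.28, 16.11 and 15.69 on the predose arrays and 13.55, 13.30, 14.61, 14.44 and 15.01 on the postdose arrays, with a fold of 3.89 (adjusted p = 0.016). For these 3 genes every postdose array lay below every predose array. The AP-1 subunit Fosb had 10.64, 11.84, 12.57, 12.98 and 11.77 on the predose arrays and 10.56, 9.15, 9.64, 8.62 and 9.17 on the postdose arrays, and Fosl1, also of AP-1, changed by -2.51 ± 0.52 to a postdose mean under the control level (at least 3.8-fold lower). Their calls ended without any 1 of 7 and 6 of the arrays (adjusted p up to 0.0697 and 0.0891). Dusp5, a phosphatase that switches off ERK kinases, fell by 1.10 (SE 0.13).

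The list was not uniform. Of 30 immediate-early genes 6 fell and none rose, against 1.42% and 2.13% of all genes tested. The median was only -0.09, however, and 12 members were higher. Dusp1, a phosphatase of stress kinases that glucocorticoids also induce, was at 17.87, 17.76, 17.06, 17.58 and 16.66 on the predose arrays and 18.16, 17.84, 17.76, 17.91 and 18.34 on the postdose arrays and did not pass (0.62 ± 0.24, adjusted p = 0.236). A dimmer probe set of Dusp1 changed by 1.15 ± 0.27 and did not pass either (adjusted p = 0.0573). In the cyclic AMP list 5 of 16 members fell and none rose, against the same shares, with a median of -0.28. Crem, a cyclic AMP-responsive regulator of CREB targets, had 14.44, 15.20, 15.55, 15.65 and 15.76 on the predose arrays and 13.47, 13.45, 13.66, 13.28 and 13.57 on the postdose arrays. The fall was 3.57-fold (adjusted p = 0.00499), and all 6 probe sets of Crem fell with an adjusted p under 0.05. Pde4d, a phosphodiesterase that degrades cyclic AMP, stood at 13.64, 14.003, 13.96, 14.11 and 14.29 on the predose arrays and 12.49, 12.67, 12.85, 12.02 and 12.61 on the postdose arrays and its relative Pde4b fell by 0.91 (SE 0.12). Sik1, a kinase that restrains CREB coactivators, had 14.88, 14.78, 14.40, 14.63 and 14.34 on the predose arrays and 13.45, 13.31, 13.85, 13.38 and 13.53 on the postdose arrays. Nr4a2 is the fifth called gene and sits in both lists. All 5 calls stood in each leave-one-out fit. Prkar1a, a regulatory subunit of PKA, changed by -0.16 ± 0.11 (adjusted p = 0.545).

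**Figure D4:**
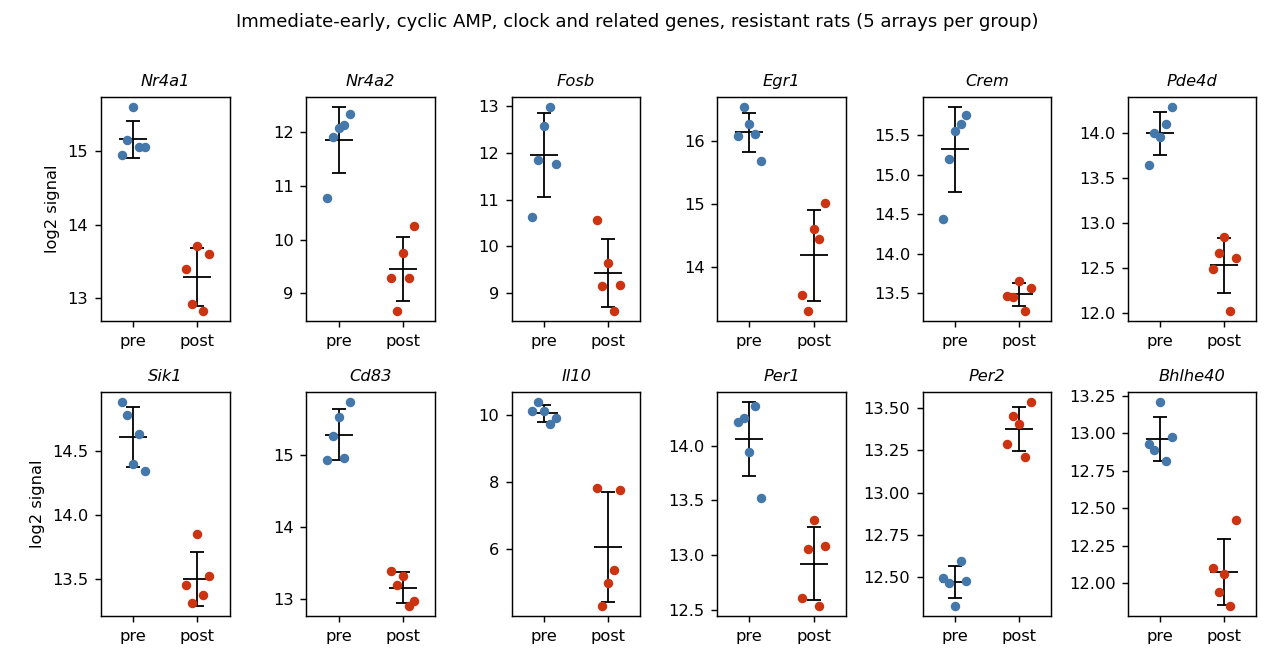
Log2 signal of 12 immediate-early, cyclic AMP, clock and related genes in resistant rats, with 5 predose arrays in blue, 5 postdose arrays in red and black bars for the mean and SD of each group; each panel has its own vertical range. Per2 is higher postdose, and the other 11 genes are lower with no overlap between groups.

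Promoter sequences of genes that fell are shown because several hold the full cAMP response element. RefSeq windows of 300 bases (250 before to 50 after the annotated start, build GRCr8) were found by symbol for 243 of the 299 genes that rose and 170 of the 199 that fell. The palindrome TGACGTCA, read on both strands, lay in 12 of the 170 windows of genes that fell (7.06%), in 3 of the 243 of genes that rose (1.23%), in 2.86% of the 11600 windows of genes tested and in 1.91% of all 27457 windows. The median GC content was 60.3% for genes that fell, 59% for genes that rose and 60% for genes tested. No test was made of these shares, and a match is not evidence of binding. Capitals mark the element, and the first 5 windows belong to genes that fell while Maff and Ier2 did not pass.
Ankrd49, chr8:19913725-19913754, - strand: cagtggtagcaTGACGTCAcagaacttcta
Cdadc1, chr15:37931820-37931849, - strand: gcgctggactcTGACGTCAcacaggcgccg
Ppp1r15a, chr1:105139644-105139673, - strand: cgcctctccggTGACGTCAgcatagcgctg
Skil, chr2:114203607-114203636, - strand: cgcgggccgggTGACGTCAgaggctgtgtg
Topors, chr5:60196004-60196033, - strand: cctgcaaccacTGACGTCAgaggcggaaaa
Maff, chr7:112792725-112792754, + strand: cgctggggcggTGACGTCActgcatgactg
Ier2, chr19:40399296-40399325, + strand: tggcgtttcagTGACGTCActcttactcta

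The genes behind these windows were chosen for the match and not for their role. Ppp1r15a (GADD34), a stress-induced subunit that directs a phosphatase to eIF2 alpha, had log2 signals of 14.03, 14.01, 13.96, 13.995 and 13.85 on the predose arrays and 13.003, 12.72, 13.08, 13.02 and 13.44 on the postdose arrays (log2 change -0.91 ± 0.13, adjusted p = 0.00855). Ankrd49, an ankyrin repeat protein, changed by -1.12 ± 0.12 (SE), Skil, a repressor of transforming growth factor beta signalling, by -0.80 ± 0.12, and Topors, a ubiquitin and SUMO ligase, by -0.58 ± 0.11. Each of these was lower on every postdose array than on any predose array. None of the 14 windows of cyclic AMP genes held it (0%), nor any window of a called immediate-early gene, which says only that these letters were not in the 300 bases used. Of 22 immediate-early genes with a window 4 held it (18.2%), namely Maff, Ier2, Jund and Dusp1, and none of these was called.

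Clock genes moved in both directions. The clock is a loop in which BMAL1 and CLOCK drive the Per and Cry repressors through E-boxes (CACGTG), while D-boxes (TTATGNAA) bind the factors DBP, TEF, HLF and NFIL3. Of 18 genes tested 1 rose and 4 fell, against 2.13% and 1.42% of all genes tested. Per2 had log2 signals of 12.49, 12.46, 12.33, 12.59 and 12.48 on the predose arrays and 13.29, 13.46, 13.41, 13.21 and 13.54 on the postdose arrays. It rose 1.88-fold (adjusted p = 0.00287) on the brighter of its probe sets, the other one not passing with -0.45. Its paralogue Per1 went the opposite way, with 14.22, 14.26, 13.94, 14.36 and 13.52 on the predose arrays and 12.61, 13.06, 13.32, 12.54 and 13.08 on the postdose arrays (log2 change -1.14 ± 0.21, adjusted p = 0.0221). The repressor Bhlhe40 (DEC1) was at 12.93, 12.89, 13.21, 12.82 and 12.97 on the predose arrays and 12.10, 11.94, 12.06, 11.85 and 12.43 on the postdose arrays, a 1.85-fold fall. Nr1d2 (REV-ERB beta) and Cry1 fell by 0.54 and 0.50. The calls of Per2 and Bhlhe40 stood in every leave-one-out fit, while Per1 (adjusted p up to 0.06), Nr1d2 (0.123) and Cry1 (0.119) kept theirs in 4, 1 and 1 of 10. Bleeding times were not given in the labels. Of 15 clock genes with a window, 3 held an E-box (20%), namely Bhlhe40 and the uncalled Tef and Bhlhe41, and 1, Per2, held a D-box (6.67%). The windows of the called Per1 and Nr1d2 held neither, and those of Per2 and Bhlhe40 are printed with the motif in capitals.
Per2, chr9:99497167-99497196, - strand: ccatgtgcgtcTTATGTAAagagagcgacg
Bhlhe40, chr4:143174219-143174246, + strand: gcgttgtccaaCACGTGagactcatgtg

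Over all 27457 windows an E-box was found in 6.65% and a D-box in 3.54%, both strands read. For E-boxes the shares were 8.93% of genes tested, 7.41% of genes that rose and 13.5% of genes that fell, and for D-boxes they were 1.96%, 4.12% and 3.53%. These too are descriptions without a test.

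Of 19 tested genes known to respond to glucocorticoids 13 were higher, with a median of 0.29. By the test 5 rose and 2 fell, against 2.13% and 1.42% of all genes tested. Cebpd, a transcription factor of the acute phase response, had log2 signals of 12.996, 13.06, 12.27, 12.42 and 12.76 on the predose arrays and 14.79, 14.67, 14.40, 14.55 and 14.96 on the postdose arrays. All 3 of its probe sets rose, and the fold was 3.92 (adjusted p = 0.00136). Bcl6, a transcriptional repressor in lymphocytes and myeloid cells, rose by 1.13 ± 0.14, the annexin Anxa1 by 0.77 ± 0.13 and Fkbp5, a chaperone of the glucocorticoid receptor, by 1.03 ± 0.20. With single arrays left out the call of Fkbp5 was lost (adjusted p up to 0.0753). Il1r2 and Per1, named above, belong to this list as well, so its counts overlap with those of other lists. Errfi1, an inhibitor of the EGF receptor, had 11.46, 12.12, 12.01, 12.08 and 12.02 on the predose arrays and 10.25, 9.97, 10.48, 10.11 and 10.53 on the postdose arrays and fell 3.18-fold. Txnip, which binds thioredoxin, changed by 0.27 ± 0.18 and did not pass (adjusted p = 0.518).

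Interferon-stimulated genes gave 1 call in 29, a fall, where 1.42% of all genes tested fell. Irf7, the factor that amplifies type I interferon, had log2 signals of 17.74, 18.02, 17.78, 17.58 and 16.68 on the predose arrays and 16.61, 15.92, 16.40, 16.57 and 16.62 on the postdose arrays (log2 change -1.14 ± 0.26, adjusted p = 0.0478). Predose replicate 5 was far lower than the other predose arrays, and the call held in 1 of the 10 leave-one-out fits (adjusted p up to 0.118). The list median was -0.70, with 24 of 29 genes lower. Its level by array, as a median deviation, was -0.01, 1.14, 0.64, 0.70 and -0.63 predose and -0.38, -0.35, 0.02, -0.66 and -0.49 postdose. Predose replicates 1 and 5 thus lay among the postdose arrays, and the remaining 3 stood above them. Ube2l6, the enzyme that conjugates the interferon-induced modifier ISG15, had 13.40, 14.83, 14.15, 13.78 and 12.91 on the predose arrays and 11.65, 11.78, 12.01, 11.89 and 11.99 on the postdose arrays, a 3.86-fold fall (adjusted p = 0.0128) outside that list. Rsad2, the antiviral protein viperin, changed by 0.17 ± 0.20 (adjusted p = 0.737). None of 19 interferon gamma genes was called (median -0.24).

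Fetub, which encodes the plasma protein fetuin-B that the liver secretes, had the largest rise of any called gene. Its log2 signals were 9.98, 8.69, 8.77, 9.62 and 8.18 on the predose arrays and 12.34, 12.89, 12.56, 12.79 and 13.07 on the postdose arrays, and the fold was 12.9 (log2 change 3.69 ± 0.33, adjusted p = 0.00108). No predose array came within 2 log2 units of a postdose array. Most other liver genes gave no call. Of 32 liver genes tested 2 rose and 1 fell, against 2.13% and 1.42% of all genes tested. The median was 0.01, and the summed signal of the list was 40037 to 76392 on the predose arrays and 56899 to 79404 on the postdose arrays. Apoa1, Apoa2, Fga, Fgb, Fgg, Cps1, Arg1 and Cyp2c11 were among the 13 whose means were at or under the negative control level in both groups. Sult1a1, a sulfotransferase that conjugates APAP and the second gene that rose, had 8.30, 8.33, 8.81, 9.53 and 8.10 on the predose arrays and 10.56, 10.31, 9.97, 10.35 and 11.02 on the postdose arrays, a 3.55-fold rise (adjusted p = 0.0126). Hpd, an enzyme of tyrosine breakdown, was called lower (-2.28 ± 0.48) with both means under the highest negative control, and kept its call in 3 of the 10 leave-one-out fits (adjusted p up to 0.0924). Haptoglobin (Hp) and C3, the liver genes of highest signal, which leucocytes also express, changed by 0.21 ± 0.25 and -0.52 ± 0.23 (adjusted p = 0.746 and 0.287).

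In the lists for APAP metabolism and stress, counts are to be read against the 2.13% that rose and 1.42% that fell of all genes tested. Sult1a1 was the one called gene of 18 in APAP metabolism. Of 39 glutathione and NRF2 target genes 1 rose, Ggt1, which cleaves extracellular glutathione (0.56 ± 0.11, adjusted p = 0.0269, lost in 9 of 10 leave-one-out fits, up to 0.0702), and the median was 0.01. Glutathione peroxidase Gpx1 changed by 0.01 ± 0.14 and Gclc, which makes the first step of glutathione synthesis, by -0.14 ± 0.09 (adjusted p = 0.982 and 0.504). Of 27 genes of the unfolded protein response 3 fell (11.1%), namely Ppp1r15a, the endoplasmic reticulum co-chaperone Dnajb9 (-0.84 ± 0.14) and Trib3, a pseudokinase (-0.62 ± 0.14, adjusted p up to 0.11 without 1 array). Hspa5, the chaperone BiP, changed by -0.45 ± 0.12 with an adjusted p of 0.0775. Among 26 heat shock genes 2 fell (7.69%). The co-chaperone Dnajb4 fell (-0.76 ± 0.13) and so did the factor Hsf2 (-0.59 ± 0.12), but another probe set of Hsf2 went the other way at an unadjusted p under 0.05 and the call held in 1 leave-one-out fit (adjusted p up to 0.083). Bik, which promotes apoptosis, was the single call of 24 p53 and BCL2 family genes (1.46 ± 0.28, adjusted p up to 0.0651 without 1 array). None of 17 iron and heme genes passed.

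Counts in the metabolic lists are set against the 2.13% that rose and 1.42% that fell of all genes tested. In the fasting list 2 of 32 fell (6.25%) and none rose. These were Irs2, an adaptor of the insulin receptor, with 12.48, 12.13, 12.56, 12.54 and 12.85 on the predose arrays and 11.44, 11.69, 11.63, 11.78 and 11.80 on the postdose arrays (adjusted p = 0.0162), and Foxo1, a factor that insulin restrains (-0.76 ± 0.13, lost without predose replicate 3 or postdose replicate 2, adjusted p up to 0.0543). Insulin-responsive Foxo3 changed by 0.29 ± 0.13 (adjusted p = 0.296). A dimmer probe set of Foxo3 went the other way with -0.80, and its postdose arrays all lay below (limma unadjusted p = 0.0291, adjusted p = 0.229). In cholesterol synthesis, Insig1, which holds the sterol sensor in the endoplasmic reticulum, had 14.19, 14.15, 14.11, 13.88 and 13.85 on the predose arrays and 13.26, 13.24, 13.33, 12.95 and 13.19 on the postdose arrays. The groups were apart (-0.84 ± 0.12, adjusted p = 0.00681), and Idi1, an isoprenoid enzyme, fell by 0.81 (adjusted p up to 0.0549 without predose replicate 2, predose replicate 3 or predose replicate 4). No other of the 18 genes passed, so 11.1% of this list fell and none rose. Egln3, an oxygen-sensing hydroxylase, was the 1 call of 27 glycolysis and hypoxia genes (-0.50 ± 0.10, adjusted p up to 0.084). Alox5ap, which presents arachidonic acid to 5-lipoxygenase and is abundant in myeloid cells, had 15.25, 15.15, 14.92, 15.21 and 14.71 on the predose arrays and 16.32, 16.23, 16.01, 15.96 and 16.37 on the postdose arrays, and it was the 1 call of 21 eicosanoid genes (1.13 ± 0.14, adjusted p = 0.00431).

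Calls in the lists of housekeeping machinery are likewise to be read against 2.13% of all genes that rose and 1.42% that fell. None of 67 oxidative phosphorylation, 30 proteasome, 24 translation factor, 38 mitosis or 24 growth and repair genes was called, with medians of -0.05, -0.10, -0.12, -0.27 and -0.18. Of 42 ribosomal protein genes 1, Rpl30, was lower, on a probe set that lay near the control level (8.35 ± 0.44 predose and 6.74 ± 0.49 postdose, mean ± SD, n = 5), and its call was lost without postdose replicate 1 (adjusted p = 0.0504). DNA replication genes were lower in 27 of 30 cases (median -0.30), but only Rfc3, a clamp loader subunit, and Orc6, of the origin recognition complex, passed (-0.76 ± 0.15 and -0.73 ± 0.14), and without 1 array between 0 and 4 members did, with adjusted p up to 0.0742 and 0.0752. Pcna, the replication clamp, changed by -0.48 ± 0.13 (adjusted p = 0.0923).

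Markers of tissues other than blood were not called, with 3 exceptions in liver given above. None of 12 eye and retina, 12 skeletal muscle, 8 endothelial or 10 fibroblast and fat genes passed. Both groups were at or under the control level for 7, 6, 2 and 7 of them in that order, including the photoreceptor genes Gnat1, Rcvrn and Prph2 and the muscle genes Acta1 and Myh4. Sag, the rod arrestin, changed by -0.98 ± 0.32 (adjusted p = 0.144). Summed retinal signal was 4674 to 6710 on the predose arrays and 4366 to 6122 on the postdose arrays, and summed fibroblast and fat signal was 1860 to 9258 on the predose arrays and 1995 to 3197 on the postdose arrays. Col1a1, a collagen of fibroblasts, changed by -1.66 ± 0.57 and Fbn1, a matrix microfibril protein outside these lists, fell (-2.02 ± 0.43, adjusted p up to 0.0952 without 1 array).

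**Figure D5:**
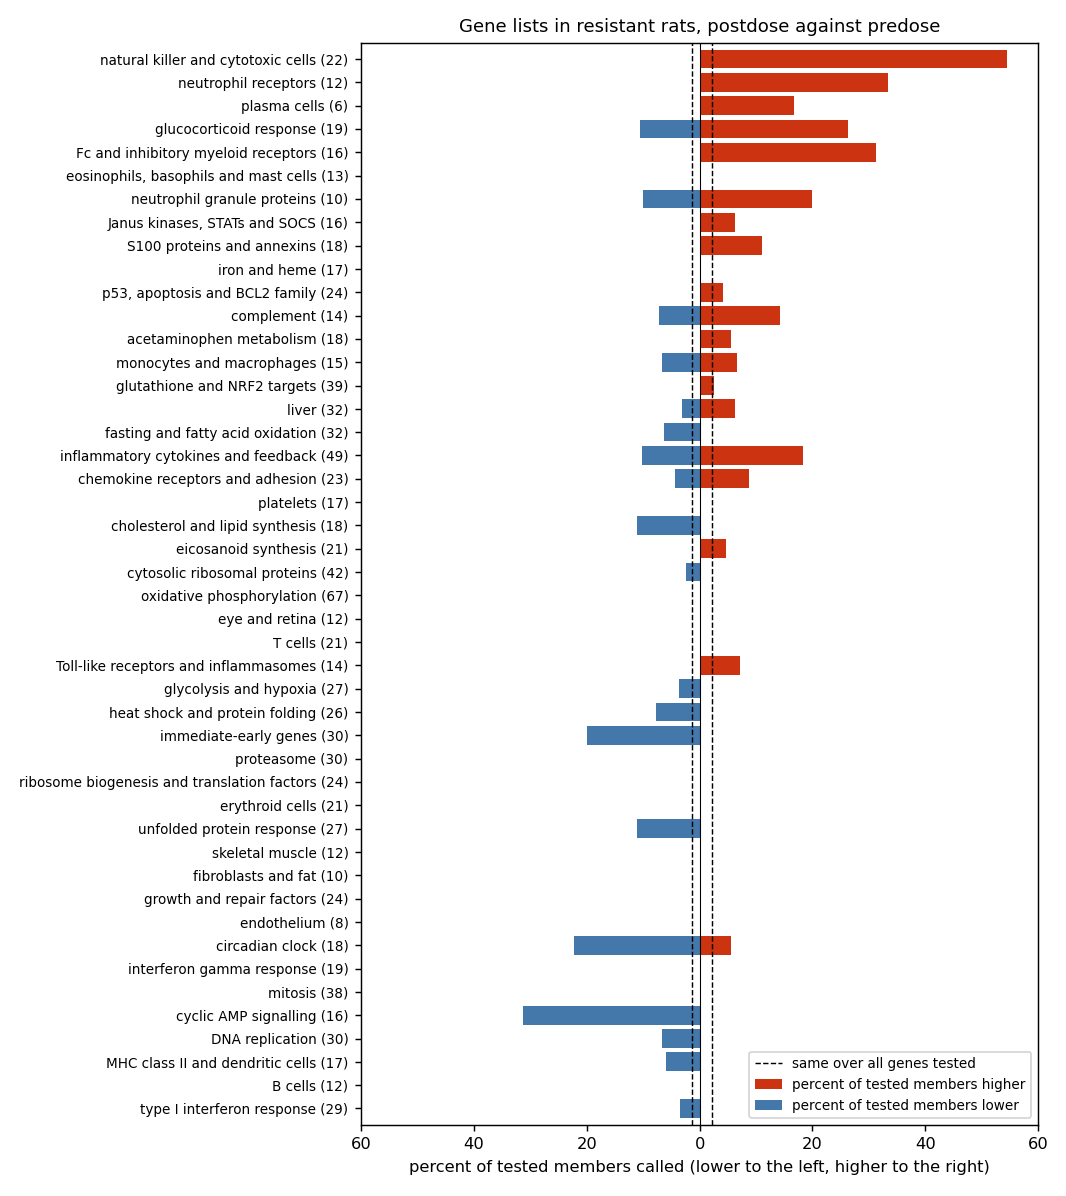
Percent of tested members of 46 gene lists called higher (red, to the right) or lower (blue, to the left) postdose in resistant rats, ordered by the list's median change, with the number of members tested in brackets. Dashed lines mark 2.13% and 1.42%, the shares over all genes tested; the NK and cytotoxic list has the longest red bar and the cyclic AMP list the longest blue bar.

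The remaining genes with the largest changes share no list. Among those that rose, Tgm1, a transglutaminase, had log2 signals of 10.68, 9.89, 9.84, 9.96 and 9.98 on the predose arrays and 12.21, 12.36, 12.61, 13.02 and 12.72 on the postdose arrays (5.71-fold). Steap4, a metalloreductase of the iron and copper economy, was at 13.60, 13.58, 13.002, 13.28 and 13.57 on the predose arrays and 15.02, 15.28, 15.31, 15.65 and 15.66 on the postdose arrays (3.94-fold). Both separated the groups with adjusted p of 0.000939 and 0.00106. Card10, a scaffold that links receptors to NF-kappaB, rose by 2.15 ± 0.20, Gng8, a G protein gamma subunit, by 2.15 ± 0.22, and Sycp2, a synaptonemal complex protein, by 2.03 ± 0.29. The kinase Mark1 and the magnesium transporter Mmgt2 rose by 1.89 ± 0.26 and 1.85 ± 0.12, and Mmgt2 stood at 9.77 ± 0.15 predose and 11.62 ± 0.14 postdose (mean ± SD, n = 5), though it lost its call with all 20 arrays in the fit.

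Among those that fell, Cd83, a surface marker of activated dendritic cells and lymphocytes, had 14.93, 15.26, 15.53, 14.97 and 15.74 on the predose arrays and 13.40, 13.20, 13.32, 12.91 and 12.97 on the postdose arrays, a 4.37-fold fall (adjusted p = 0.00106). Abhd10, a mitochondrial thioesterase, stood at 13.16, 13.75, 13.63, 13.77 and 13.30 on the predose arrays and 11.75, 11.56, 11.21, 11.34 and 11.79 on the postdose arrays. Its 3.98-fold fall had an adjusted p of 0.00106, and as for Cd83 the groups did not touch. Gjb2, the gap junction protein connexin 26, changed by -1.86 ± 0.34, the retinoic acid-induced receptor Gprc5a by -2.06 ± 0.38, Sowahc, an ankyrin repeat protein, by -1.79 ± 0.34 and the uncharacterised LOC103691468 by -2.35 ± 0.41. Leaving out single arrays ended these 4 calls (adjusted p up to 0.0609, 0.067, 0.0701 and 0.0524). Of genes without regard to signal, the cytochrome Cyp2d2 and coagulation factor F10, both made in liver, fell at least 1.62-fold and 3.33-fold to the control level, and kept their calls in 3 and 2 leave-one-out fits (adjusted p up to 0.0714 and 0.0953).

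The change between the same bleeds was also measured in the susceptible rats, and the difference between both changes was tested. Of 30747 probe sets, 0 passed the test of the difference in change (0.0%, limma with all 20 arrays, smallest adjusted p = 0.161), and 2122 had an unadjusted p under 0.05. Of the 968 probe sets called in resistant rats, 921 had a log2 change of the same sign in susceptible rats, and for 680 the change there was smaller in size. These probe sets were chosen for their change in resistant rats, which by itself favours a smaller change in the other sub-group. The 680 therefore does not show a weaker response in susceptible rats, and the same counts over all probe sets were not made. The log2 change in the susceptible sub-group was 3.71 for Fetub, 2.80 for Cd33, 0.83 for Klrd1, 1.73 for Csf3r, 1.24 for Per2, -1.20 for Crem and -1.86 for Cd83, each of the sign found in resistant rats. It was -0.46 for Egr1 and -0.64 for Fosb, and the difference in change did not pass for either (unadjusted p = 0.0137 and 0.0154, adjusted p = 0.563 and 0.57). An adjusted p above the threshold does not show that the sub-groups responded alike.

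The 5 smallest p values among genes with 1 symbol belonged to Gbp2, Klhl14, Helz2, Ubd and Ccrl2, all with an adjusted p of 0.161. Gbp2, a guanylate-binding GTPase that interferon gamma induces, changed by -0.13 in resistant and 2.03 in susceptible rats. Helz2, a helicase coactivator, changed by -0.66 and 0.78, Ubd, a ubiquitin-like modifier that interferon gamma and tumour necrosis factor induce, by -0.23 and 1.54, and Ccrl2, an atypical chemokine receptor, by -0.90 and 0.67. Klhl14, a Kelch-like protein, changed by -0.35 and -1.33. On the resistant arrays Gbp2 had 14.94, 15.90, 15.19, 15.41 and 14.65 on the predose arrays and 14.90, 15.04, 15.55, 14.96 and 14.998 on the postdose arrays, so that its groups overlapped there. The median change of the type I interferon list was -0.70 in resistant and 0.90 in susceptible rats. On the susceptible arrays its level by array was 0.80, 0.41, -0.32, -0.60 and 0.72 predose and 1.20, 0.91, 1.68, 0.53 and 0.88 postdose. These levels are deviations from each gene's mean over the resistant arrays, not over the susceptible ones.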

How the data were processed

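Affymetrix rat genome arrays, 10 of resistant and 10 of susceptible rats, were used and grouped by their titles. By the methods, red cells were lysed before extraction, and no isolation of leucocytes is described. The RNA is therefore that of lysed blood and includes other cells. Predose mean log2 signals on the resistant arrays were 18.81 for the platelet gene Pf4 and 18.21 for the haemoglobin gene Hbb. The authors deposited 1 linear signal intensity per probe set and array. The software that made these intensities and its background correction were not given in the sources used here, and such summaries can change the size of differences at low signal. Deposited columns hold no detection calls, so that the number of arrays and the signal over negative controls limit the precision.

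Of 31099 probe sets 57 controls were left out. For the other 31042, each array was brought to a median of 1000, the value the methods name, and log2 was taken. A probe set had to reach 100 on at least 1 of the arrays compared. Symbols came from the platform annotation, with 20826 probe sets having 1 symbol, 436 several and 9780 none. Only probe sets with 1 symbol were named, and a gene was represented by the probe set of highest mean signal. The tests came from limma 3.58.1 under R 4.3.3, with lmFit, eBayes and Benjamini-Hochberg adjustment over all probe sets tested (threshold 0.05), on the 10 resistant arrays for the change and on all 20 arrays for the difference in change. The procedure was tested on simulated data. The 10 resistant arrays are of 5 rats, each bled before and after dosing, but the labels do not tie the replicate numbers to individual rats. The tests therefore treat the arrays as separate samples, and p-values measure only the spread between them.

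Genes described were the 15 that rose most and the 15 that fell most among called genes whose higher group reached the array median, 5 in each direction without that limit, up to 6 called in each direction and the 2 of highest signal in each of 46 gene lists, and the 5 with the smallest p for the difference in change. The comparison, the lists and this choice were made with earlier results of these data known. Genes shown for a promoter match, and the highest negative control as the floor for "at least" folds, were chosen after the values were seen. Alternatives were quantile normalization, values without scaling, other filters, an offset, all 20 arrays, a variance trend, a block for the replicate number, the t-test of the methods and leaving out each array.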

Additional observations from a re-analysis of the deposited data

Results flagged for a closer look

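Among 280 groups of 5 arrays, for 137 genes and 3 array measures, 14 held an array that stood apart from the other 4 by Dixon's test. Chance flags about 1 in 20 groups, which is 14 of 280. Predose replicate 5 was the array in 6 of them, where the log2 signal was 13.62 for C3 (next array 14.40), 13.50 for Cd55 (next 14.17), 15.15 for Clec7a (next 15.51), 8.14 for Cyp2d2 (next 8.92), 15.81 for Pcna (next 16.20) and 15.87 for Tyrobp (next 17.00). Predose replicate 1 was low for Nr4a2 (10.78, next 11.92) and Errfi1 (11.46, next 12.01) and high for Tgm1 (10.68, next 9.98). Predose replicate 2 was high for Siglec5, at 10.30 against a next value of 10.10. Among postdose arrays, replicate 4 was low for Tyrobp (16.82, next 17.65) and high for Il15 (12.71, next 12.60), replicate 2 was high for Hp (15.30, next 14.80) and replicate 3 was high for Gbp2 (15.55, next 15.04).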

How the results depend on the processing

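The number of probe sets called in resistant rats was 968 in the comparison as reported. It was 1579 with all 20 arrays in the fit, 1828 with the stricter filter on dim probe sets and 1987 with a variance trend and robust estimation. Leaving out 1 array gave 439 to 1051. Other settings (quantile normalization, values as deposited, no filter, 1 probe set per gene, an offset of 100 and the methods' t-test) gave 712 to 1397. With the replicate number as a block 3 probe sets were called, 2 higher and 1 lower, and 4861 had an unadjusted p under 0.05, against 5133 without the block. The numbers are not known to pair the samples, since the labels do not tie them to individual rats. Deviations of same-numbered arrays correlated from -0.009 to 0.019, and 2 of 5 predose arrays correlated best with their own number. Arrays of unequal number correlated from -0.045 to 0.058, although some of all these combinations must be of 1 rat. This measure therefore cannot show whether equal numbers are 1 rat, and whether the block is the proper fit was not settled. Of the 106 called genes described, the block ended 105 calls, Il22ra2 being the exception, and adjustment of the methods' t-test ended 32. The fit with all 20 arrays ended 8, among them those of Camp, Il1r2, Stat5b, Hpd, Cxcl1 and Mmgt2. None of the 192 genes described reversed as a called value. Probe sets called for the difference in change numbered 0, and leaving out 1 array gave 0 to 2, the 2 without resistant predose replicate 1. Signals near the bacterial controls limit the size of changes in 15 called genes.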
